A study of Mus musculus with 15 samples.

Results

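The 5 tumours with the highest and the 5 tumours with the lowest level of 3 proliferation genes, out of 15 mouse brain tumours profiled by RNA sequencing, were compared across all other genes. The 10 tumours were chosen by a score, the mean of log2(CPM + 1) of Mki67, Top2a and Mcm2, where CPM is reads per 1000000 reads counted in genes. The 3 genes were left out of every comparison, and their values are given as a description, with no test between the sets or with the score. All tumours were from C57BL/6 mice with the Nestin Tv-a transgene, which puts an avian virus receptor on Nestin-expressing neural progenitors, and with floxed Trp53. The ATRXfl groups also had floxed Atrx and the p53 groups did not. DF-1 chicken cells injected into the cortex delivered 3 avian retroviruses. These were RCAS-PDGFA, RCAS-Cre and a histone virus, which was RCAS-H3.3WT-GFP in the groups ATRXfl_WT and p53_WT and RCAS-H3.3G34R-GFP in the groups ATRXfl_G34R and p53_G34R. Tumours were taken from the frontal cortex at the functional end point. The study thus compared loss of Atrx and the mutant histone H3.3G34R, and the high-score and low-score sets are not groups of the study. Each tumour of both sets also carried the PDGFA virus and floxed Trp53, and the labels do not say which part of Atrx is deleted or the age of the mice. The labels do not say that each library is a separate mouse, so p-values measure the spread between these libraries, which may in part be technical. Replicate numbers follow the order of the records and pair nothing.

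Mki67 is a nuclear protein of cycling cells, Top2a untangles chromosomes before they separate, and Mcm2 is a subunit of the helicase that opens DNA at replication origins. Dividing cells switch on genes in waves. E2F factors drive the genes of the G1 to S transition and of DNA replication, and the DREAM complex, B-Myb and FoxM1 control the later wave of mitotic genes, many of which have a cell cycle homology region and CCAAT boxes in their promoters. In gliomas started by PDGF, most cells resemble oligodendrocyte progenitors, and the tumours also hold normal neurons, glia, vessels, blood and immune cells. In such bulk samples fewer cells of a type and less RNA per cell cannot be told apart.

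The promoters of 4 genes on which the results turn are shown, those with the smallest p of their lists, 2 of mitosis (Kif11 and Cenpe) and 2 of replication (Mcm7 and Tyms). Each is the 250 bases before the RefSeq start (GRCm38.p6), 5′ to 3′ on the gene's strand, with motif matches in capitals. Kif11 lies on the plus strand at chr19:37376132-37376381, Cenpe on the plus strand at chr3:135212313-135212562, Mcm7 on the minus strand at chr5:138171884-138172133, before the first of its 2 listed starts, and Tyms on the minus strand at chr5:30073626-30073875. The GENCODE gene spans given below start earlier for 2 of them. The whole Mcm7 window lies inside its span (up to 138172422). The end of the Cenpe window, with its CCAAT, lies inside its span (from 135212537). Positions before the start thus refer to the RefSeq start only.
Kif11: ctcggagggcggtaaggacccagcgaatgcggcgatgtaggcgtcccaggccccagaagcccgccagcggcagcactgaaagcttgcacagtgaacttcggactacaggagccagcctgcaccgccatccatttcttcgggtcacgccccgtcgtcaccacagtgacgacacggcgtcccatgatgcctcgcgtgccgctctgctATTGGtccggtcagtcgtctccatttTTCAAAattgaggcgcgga
Cenpe: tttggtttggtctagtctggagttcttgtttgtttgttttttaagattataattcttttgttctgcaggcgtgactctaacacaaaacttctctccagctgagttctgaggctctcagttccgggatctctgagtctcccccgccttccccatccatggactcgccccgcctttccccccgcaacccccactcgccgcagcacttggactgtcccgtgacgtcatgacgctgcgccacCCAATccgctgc
Mcm7: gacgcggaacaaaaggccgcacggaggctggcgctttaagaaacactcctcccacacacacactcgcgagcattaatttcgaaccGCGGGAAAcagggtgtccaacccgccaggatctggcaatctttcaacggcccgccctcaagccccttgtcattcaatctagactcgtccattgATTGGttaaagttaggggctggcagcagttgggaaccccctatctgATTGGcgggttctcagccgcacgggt
Tyms: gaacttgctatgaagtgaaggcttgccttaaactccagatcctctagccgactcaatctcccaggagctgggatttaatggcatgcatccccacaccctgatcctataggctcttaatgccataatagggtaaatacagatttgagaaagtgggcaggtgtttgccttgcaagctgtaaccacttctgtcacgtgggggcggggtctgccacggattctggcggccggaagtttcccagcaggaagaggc
In Kif11 the capitals are ATTGG, which is CCAAT on the other strand, 45 to 41 bases before the start and TTCAAA, which is TTTGAA on the other strand, 19 to 14 bases before it. In Cenpe they are CCAAT, 12 to 8 bases before the start. In Mcm7 they are GCGGGAAA, which is the E2F-like TTTCCCGC on the other strand, 165 to 158 bases before the start and ATTGG at 72 to 68 and 26 to 22 bases before it. The Tyms window holds none of the letters searched, which says only that they are not in this window. The letters searched on both strands were CCAAT, the homology-region-like TTTGAA and TTTAAA, and the E2F-like TTTGGCGC, TTTCGCGC, TTTCCCGC and TTTGGCGG. TTTAAA reads the same on both strands, matches of different motifs may overlap, and a promoter counts once for each kind of motif. Among the 71 of 87 listed mitosis genes with a promoter in the table, 64.8% held CCAAT, 42.3% TTTGAA or TTTAAA and 8.45% an E2F-like match. Among 47 of 59 listed replication genes these shares were 51.1%, 14.9% and 23.4%. Over the first listed start of all 27025 genes they were 34.5%, 25.5% and 2.0%. These are counts of letters, not of bound sites.

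The score ranged from 5.99 to 9.37. In order from the highest, the high-score tumours were p53_WT replicate 2 (9.37), p53_G34R replicate 3 (8.53), p53_WT replicate 4 (8.47), ATRXfl_G34R replicate 4 (8.44) and ATRXfl_WT replicate 3 (8.32). In order towards the lowest, the low-score tumours were p53_G34R replicate 2 (7.58), p53_G34R replicate 1 (7.17), ATRXfl_WT replicate 2 (6.75), ATRXfl_WT replicate 1 (6.07) and p53_WT replicate 3 (5.99). Values of single tumours are given in these orders throughout, and a mean ± SD is over the 5 tumours of each set (n = 5), the high-score set first. Every group gave at least 1 high-score tumour, and every group except ATRXfl_G34R gave at least 1 low-score tumour. The counts of high-score, middle and low-score tumours were 1, 3 and 0 in ATRXfl_G34R (n = 4), 1, 1 and 2 in ATRXfl_WT (n = 4), 1, 0 and 2 in p53_G34R (n = 3) and 2, 1 and 1 in p53_WT (n = 4). Each set held 2 Atrx-floxed and 3 Atrx-intact tumours, and 2 tumours with H3.3G34R and 3 with H3.3WT. Each change taken alone was thus split alike, but their combinations were not, as the counts by group show.

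The edges of the sets were close to the tumours between them. At the upper edge ATRXfl_WT replicate 3 (8.32) was inside and p53_WT replicate 1 (8.03) outside, and at the lower edge p53_G34R replicate 2 (7.58) was inside and ATRXfl_G34R replicate 1 (7.63) outside. Mki67 was at 1024, 545, 460.1, 489 and 570.1 CPM in the high-score tumours and at 223, 144, 209.7, 87.4 and 88 in the low-score tumours. Top2a was at 1009, 589, 532, 509 and 428 CPM and at 217, 238, 131, 74.4 and 82.8. Mcm2 was at 280.3, 156, 182, 168 and 134 CPM and at 141, 85.2, 44, 44.8 and 33.6. The 3 genes did not rank the tumours alike, where p53_G34R replicate 2 had more Mcm2 (141 CPM) than ATRXfl_WT replicate 3 of the high-score set (134 CPM). The group means of the score were 7.98 ± 0.35 (SD, n = 4) in ATRXfl_G34R, 7.28 ± 1.05 (n = 4) in ATRXfl_WT, 7.76 ± 0.70 (n = 3) in p53_G34R and 7.97 ± 1.43 (n = 4) in p53_WT.

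**Figure D1:**
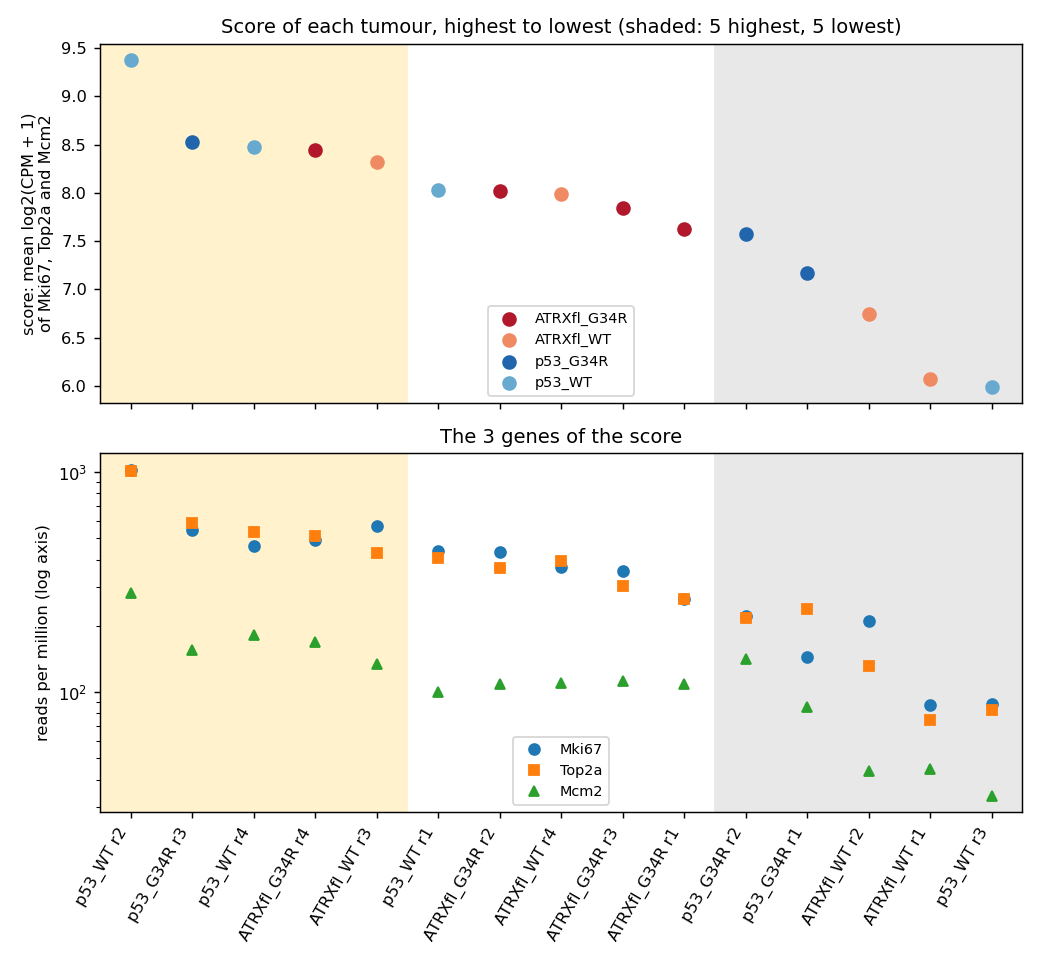
Score of each of the 15 tumours, coloured by study group (upper panel; mean log2(CPM + 1) of 3 genes), and the CPM of the 3 genes on a log axis (lower panel), from the highest to the lowest score. The shaded sets of 5 hold tumours of 4 groups at the high end (8.32 to 9.37) and of 3 groups at the low end (5.99 to 7.58).

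Libraries held 22807315 to 35679129 reads in genes, and no pair of libraries within a set was alike to within sampling noise (30 pairs, chi-square divided by its degrees of freedom 81.1 or more, where repeats of the same library give about 1). Atrx checked the labels and lay at 48.9 to 115 CPM in the 8 floxed tumours and at 169 to 311 in the 7 intact ones. Among low-score tumours, p53_WT replicate 3 stood apart with a summed 19461 CPM of mature neuron genes (661 to 4256 in the other 14 tumours), and ATRXfl_WT replicate 1 with 5750 CPM of endothelial, 8727 of mural and fibroblast and 20537 of erythroid genes. Xist, expressed in female cells, was at 0.0400, 1588, 1156, 1.01 and 0.367 CPM in the high-score tumours and at 0.262, 799.6, 380.4, 0.816 and 552 in the low-score tumours, so tumours with and without it were in each set. The first code of the library titles, whose meaning is not given, is shared by p53_WT replicates 4 (high) and 3 (low), by p53_G34R replicates 3 (high) and 2 (low) and by ATRXfl_G34R replicates 4 (high) and 1 (middle). These 3 pairs lie across sets, so they were not among the 30 pairs compared, and their likeness was not tested by chi-square. A further number in each title differs between all libraries, and the labels do not say whether it numbers mice. Of the pairs across the high-score and low-score sets, p53_G34R replicates 3 and 2 differed in Xist (1588 and 0.262 CPM). Both p53_WT replicates 4 and 3 had it (1156 and 552 CPM).

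Across 15510 genes with a mean of at least 1 CPM, 24 were higher in the high-score tumours and 0 lower by limma at a Benjamini-Hochberg adjusted p under 0.05, which is 0.155% and 0.0% of the genes tested. All 24 sat at the threshold, with the same limma adjusted p of 0.04997, and all 24 had sets that did not overlap and a mean of the middle tumours between those of the sets. Their log2 differences ran from 1.36 to 2.36 (median 1.69). At an unadjusted p under 0.05 there were 1093 higher and 407 lower genes. The sets did not overlap for 335 genes higher in the high-score tumours (2.16% of those tested) and 85 lower (0.548%). For each such gene the 2-sided exact permutation p over 252 assignments of the 10 tumours is 0.00794, the smallest they can give. Of the 24 genes, 15 were in the 7 cell-cycle lists, which support nothing of their own, since the score is made of cell-cycle genes from the same libraries.

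The 24 calls between the sets were lost in most other fits. edgeR called 0 genes (932 higher and 1118 lower at an unadjusted p under 0.05), DESeq2 called 228 higher and 129 lower. limma called 0 with the reads scaled by TMM or the median of ratios. Leaving out single tumours gave 124 higher without p53_G34R replicate 2, 1 without ATRXfl_WT replicate 3 and 0 without any other. With the score as a continuous term over all 15 tumours, limma called 1122 of 15397 genes as rising with the score (7.29%) and 491 as falling (3.19%). All 24 genes rose with the score too, also without any 1 of the 15 tumours and without p53_WT replicate 3 and ATRXfl_WT replicate 1 together (354 rising and 78 falling genes). The rising and falling counts were 532 and 151 without p53_WT replicate 3, 641 and 187 without p53_WT replicate 2, 871 and 313 without p53_G34R replicate 3 and 1435 and 716 without ATRXfl_G34R replicate 4. The share of rising genes depended on the scaling and tool, with 859 rising and 644 falling under the median of ratios and 926 rising and 1639 falling by edgeR. Within the 8 Atrx-floxed tumours alone 61 genes rose and 3 fell, 18 of the 24 among the rising ones, and within the 7 Atrx-intact tumours 287 rose and 67 fell, 19 of the 24 among them. With the libraries that share a title code summed (12 samples, chosen after seeing the data), 471 genes rose, all 24 among them, and 157 fell. Slopes that no longer passed limma then include Cdc7 (adjusted p = 0.0519), E2f2 (0.0514), Cdk4 (0.0851), Tcta (0.0578), Cpe (0.0946), Ly6c1 (0.0919), Ptprz1 (0.0687), Pfkfb4 (0.0703), Slc2a1 (0.0709) and Capn6 (0.066), and also Serpind1, Inha, Nolc1, Nop56, Sox11, Gfap and Cdkn2a. With the title code as a block, 0 genes passed in either comparison, which had 1 and 2 residual degrees of freedom.

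The mitosis lists had the highest medians of the 28 lists. This order is a description, since a score of Mki67 and Top2a alone, without Mcm2, picks the same sets. Of 53 tested genes of kinesins, the spindle and the centromere, 53 were higher by value, 12 passed limma between the sets and 51 rose with the score, with a median log2 difference of 1.62 against 0.01 over all genes tested. Of 34 mitotic kinases, cyclins and checkpoint genes, 33 were higher by value, 2 passed, 32 rose with the score and the median was 1.64. Among all genes tested 0.155% passed as higher and 7.29% rose. Kif11, the motor that pushes spindle poles apart (mm10 chromosome 19, 37376403 to 37421859), was at 257, 153, 160.4, 146 and 153 CPM in the high-score tumours and at 59, 35.8, 40.9, 19.9 and 21.5 in the low-score tumours. The lowest high-score tumour (146 CPM) was above the highest low-score one (59.0 CPM), the difference was 2.34 (SE 0.30) on the log2(CPM + 1) scale and the limma adjusted p was 0.04997. Its slope was 1.14 (SE 0.07; adjusted p = 1.26e-07) per unit of the score, 1 unit being a doubling of the geometric mean of CPM + 1 of the 3 genes.

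Cenpe, the kinesin that carries chromosomes to the spindle equator (mm10 chromosome 3, 135212537 to 135273611), was at 165, 117, 106, 83.2 and 92.8 CPM in the high-score tumours and at 33.4, 30.1, 32.1, 15.5 and 17.6 in the low-score tumours. Aspm, which holds spindle poles together (mm10 chromosome 1, 139454772 to 139494091), was at 213, 155, 143, 91.5 and 134 CPM in the high-score tumours and at 42.8, 40.5, 39.3, 15.9 and 12.6 in the low-score tumours. The sets did not overlap for either gene, and the log2 differences of 2.12 (SE 0.27) and 2.36 (SE 0.37) passed limma (adjusted p = 0.04997 each). Kif14, a kinesin of the midbody, was at 51.1 ± 17 against 11.1 ± 4.41 CPM and Ect2, an exchange factor that drives the cleavage furrow, at 80.5 ± 35.1 against 16.4 ± 7.14 CPM, log2 2.15 (SE 0.31) and 2.26 (SE 0.35). Both passed as well. p53_WT replicate 2 had the highest value of all 15 tumours in each of these 5 genes.

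Among the kinases and checkpoint genes, Bub1b, a subunit of the checkpoint complex that holds back anaphase, was at 174, 109, 92.6, 81.3 and 87.6 CPM in the high-score tumours and at 43.1, 39.1, 30.7, 17.8 and 24.4 in the low-score tumours, log2 1.79 (SE 0.28). Ccnf, an F-box protein that marks proteins for destruction in G2, was at 93.2, 63, 54.1, 52.1 and 71.4 CPM in the high-score tumours and at 31.1, 21.1, 24.9, 14.2 and 22 in the low-score tumours, log2 1.53 (SE 0.24). These were the 2 members past limma between the sets (adjusted p = 0.04997), and the sets overlapped for neither. Ccnb1, the cyclin that starts mitosis with Cdk1, was at 40.3 ± 16.4 against 10.4 ± 5.52 CPM. Ube2c, which ubiquitinates cyclins for the anaphase-promoting complex, was at 143 ± 43.4 against 43.2 ± 16.1 CPM, and Bub1, the kinetochore kinase, at 49.4 ± 14.2 against 14.6 ± 5.82 CPM. These 3 missed the threshold between the sets (limma adjusted p = 0.0766, 0.0585 and 0.0585) with sets that did not overlap, and all 3 rose with the score (limma adjusted p = 1.21e-05, 7.57e-05 and 4.8e-07). Not every mitosis gene did so. Pttg1, securin, was at 20.1, 11.4, 16.2, 22.4 and 12.5 CPM in the high-score tumours and at 13.4, 22.2, 11.6, 18.5 and 26 in the low-score tumours, log2 -0.12 (SE 0.29). Mis18a, which helps to load the centromeric histone, was at 19.3 ± 6.93 against 12.7 ± 2.95 CPM, log2 0.53 (SE 0.26). Neither passed between the sets or with the score (limma adjusted p = 0.892 and 0.546 between sets).

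**Figure D2:**
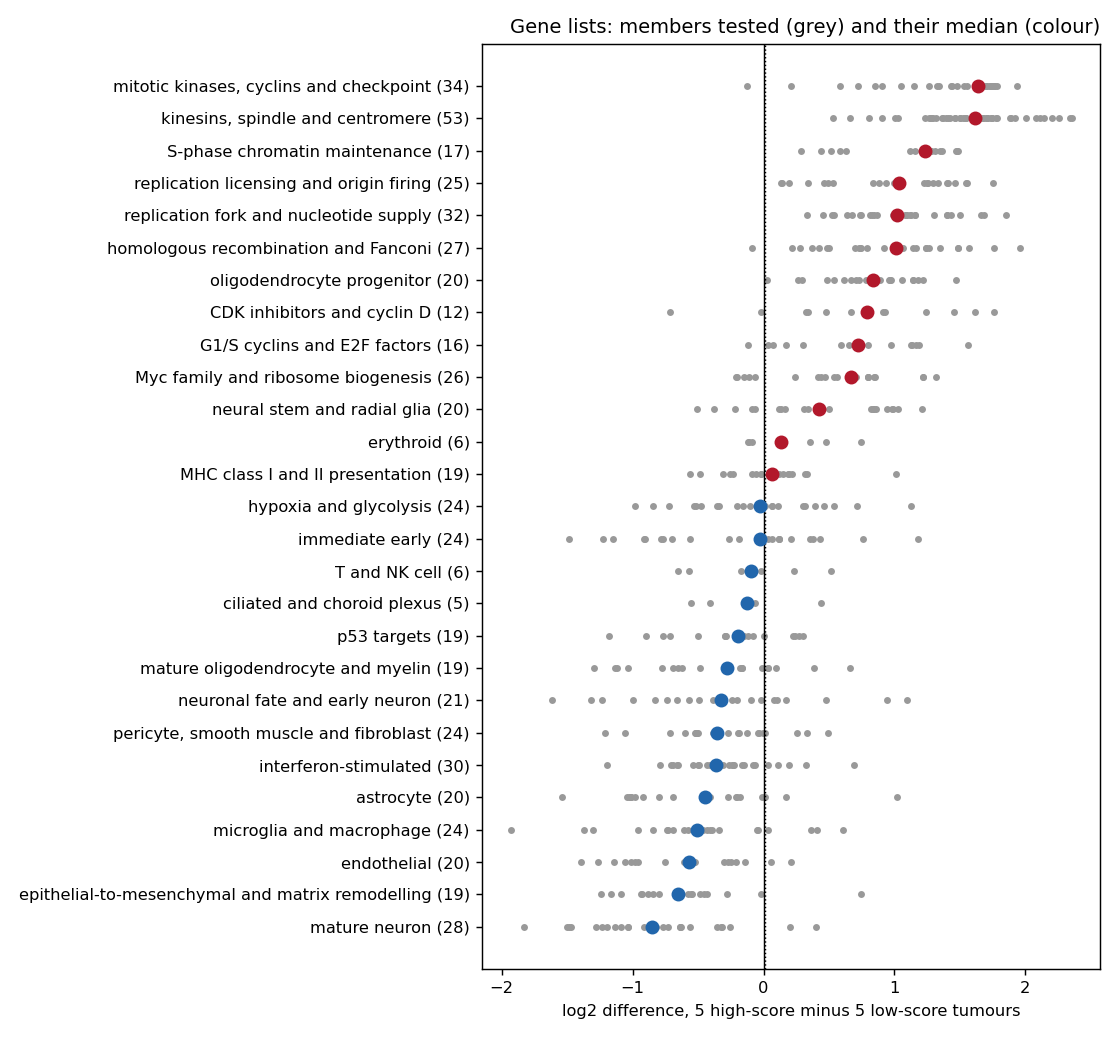
Log2 difference between the 5 high-score and 5 low-score tumours for the tested members of each gene list (grey points; number tested in parentheses) and the list's median (coloured point). The 2 mitosis lists have the highest medians (1.64 and 1.62), the replication lists stand near 1.03 and 1.02, and the mature neuron list is lowest (-0.85). The sets were chosen by cell-cycle genes, so the order of these lists is a description.

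DNA replication genes were higher by value in every tested member, with 0 of them past limma between the sets. All 25 tested genes of origin licensing and firing had a positive difference (median 1.03), 18 had an unadjusted p under 0.05, the sets did not overlap for 3, and 20 rose with the score. All 32 tested genes of the fork and of nucleotide supply were positive too (median 1.02), with 28 at an unadjusted p under 0.05, 9 that did not overlap and 27 that rose with the score. Among all 15510 genes tested, 1093 were higher at an unadjusted p under 0.05 and 2.16% were higher without overlap. The share of all genes that rose was 7.29%. Mcm7, a subunit of the same helicase as Mcm2 (mm10 chromosome 5, 138164583 to 138172422), was at 158, 115, 111, 131 and 122 CPM in the high-score tumours and at 86.3, 53.3, 32.7, 43.7 and 28.7 in the low-score tumours. The highest low-score tumour was p53_G34R replicate 2 (86.3 CPM), still below the lowest high-score tumour (111 CPM). The log2 difference of 1.46 (SE 0.28) missed the threshold (limma adjusted p = 0.0666), and the slope was 0.71 (SE 0.08; adjusted p = 3.74e-05) by limma.

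Mcm10, which tethers the helicase to the polymerase, was at 45.4 ± 14.9 against 16.2 ± 10.4 CPM. Gmnn, the inhibitor of relicensing, was at 25.2 ± 7.28 against 9.75 ± 4.21 CPM and Cdc7, the kinase that fires origins, at 49.2 ± 6.90 against 20.4 ± 12.3 CPM. Their limma adjusted p was 0.151, 0.156 and 0.183 between the sets and 1.87e-05, 0.00573 and 0.00938 with the score. At the fork, Tyms, which makes thymidylate, was at 51, 33.8, 27.2, 51 and 43.9 CPM in the high-score tumours and at 26, 13.6, 12.2, 15 and 9.0 in the low-score tumours. Tyms did not overlap between the sets, though its lowest high-score value (27.2 CPM) and highest low-score value (26 CPM) nearly met, and its log2 difference was 1.44 (SE 0.29). Pola1, the catalytic subunit of the priming polymerase, was at 59 ± 18.3 against 17.5 ± 11.3 CPM, and Clspn, a mediator of the replication checkpoint, at 67 ± 15 against 23.6 ± 17.1 CPM. Both missed the threshold between the sets (limma adjusted p = 0.114 and 0.134) and rose with the score (8.97e-05 and 8.92e-07 by limma). Orc3 of the origin recognition complex (log2 0.13 (SE 0.17)) and Tipin of the fork protection complex (log2 0.33 (SE 0.35)) had the smallest differences of their lists, and neither passed either test.

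Replication and mitosis genes did not have the same order over the tumours. Relative to the mean of the 15 tumours, the median of the fork genes was 0.32 in p53_G34R replicate 2, close to the high-score tumours (0.32 to 0.94), while that of its kinesin and spindle genes was -0.29 (0.56 to 1.32 in the high-score tumours). The same tumour had 0.33 for licensing genes and -0.27 for mitotic kinases. ATRXfl_WT replicate 2 stood the other way, with -0.84 for the fork and -0.51 for the kinesin list. p53_WT replicate 3 and ATRXfl_WT replicate 1 were low in both, with -1.08 and -0.78 for the fork and -1.53 and -1.45 for the kinesin list. Between libraries that share a title code, the kinesin list was at 0.56 in p53_WT replicate 4 and -1.53 in p53_WT replicate 3, and at 0.60 in p53_G34R replicate 3 and -0.29 in p53_G34R replicate 2. Without p53_WT replicate 3 and ATRXfl_WT replicate 1, the median log2 difference between the sets was 1.15 for the kinesin list, 1.16 for mitotic kinases, 0.84 for the fork and 0.74 for licensing. These medians are descriptions, with no test, since the tumours were ordered by genes of both processes. The processes do not weigh alike in the score, since Mki67 and Top2a alone pick the same sets.

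**Figure D3:**
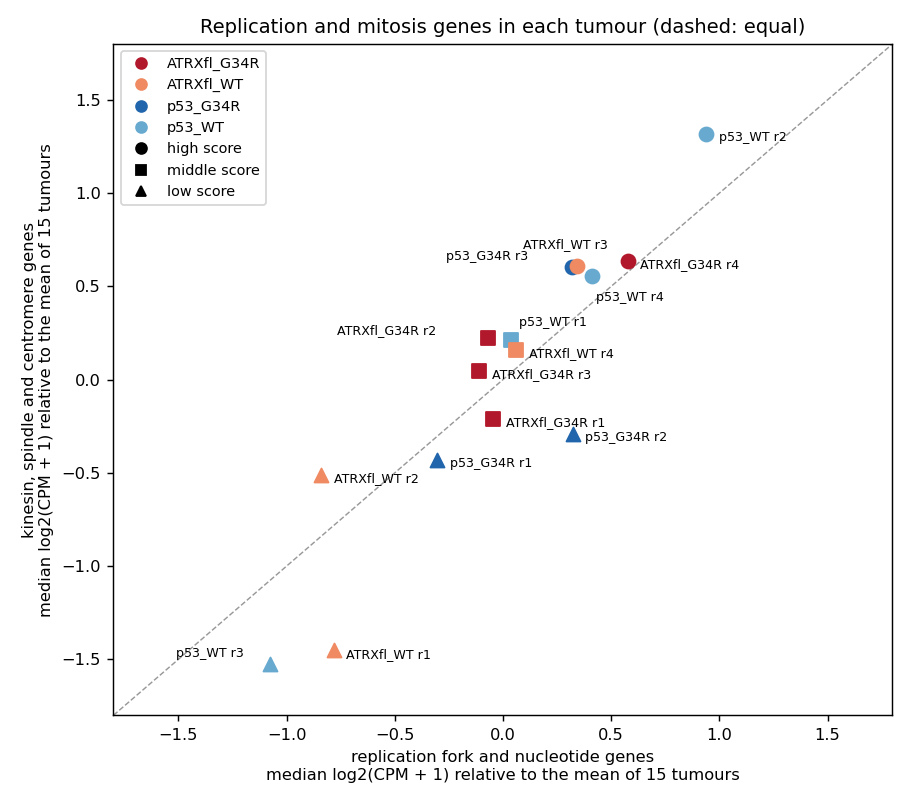
Median level of 32 replication fork genes (horizontal axis) against 53 kinesin, spindle and centromere genes (vertical axis) in each of the 15 tumours, as log2(CPM + 1) relative to the mean of all tumours; colours give the study group and shapes the set. p53_G34R replicate 2 has a fork level of 0.32 with a kinesin level of -0.29.

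Genes of the G1 to S transition had smaller differences, with 15 of 16 higher by value, 0 past limma (9 at an unadjusted p under 0.05), 10 rising with the score and a median log2 difference of 0.72. The share of all genes that rose was 7.29%. E2f7, a repressing E2F factor, was at 56.8, 25.8, 26.8, 29.7 and 26.8 CPM in the high-score tumours and at 17.4, 24.8, 8.91, 8.27 and 2.77 in the low-score tumours. The sets nearly touched (25.8 and 24.8 CPM), the log2 difference was 1.56 (SE 0.47) and only the slope passed (limma adjusted p = 8.63e-05). E2f2, an activating factor, was at 29.2 ± 4.83 against 13.8 ± 6.30 CPM, E2f8 at 34.7 ± 12.7 against 14.6 ± 6.08 CPM and Rbl1, the p107 pocket protein, at 37.5 ± 8.96 against 19.3 ± 7.43 CPM. All of them passed with the score and not between the sets (limma adjusted p between sets 0.224, 0.244 and 0.244). Tfdp2, a partner of E2F proteins, was at 34.2 ± 9.13 against 37.3 ± 10.5 CPM and passed neither.

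Chromatin genes of S phase were higher by value in 17 of 17 members (median 1.24), with 1 past limma between the sets and 15 rising with the score. Among all genes tested these shares were 0.155% passing as higher and 7.29% rising. The member that passed was H2afx, the histone variant phosphorylated at DNA breaks, at 183, 137, 143, 159 and 152 CPM in the high-score tumours and at 86.9, 68.8, 52.4, 49.5 and 47.2 in the low-score tumours, log2 1.36 (SE 0.20) (limma adjusted p = 0.04997). Every high-score tumour (137 CPM and above) was above every low-score one (86.9 CPM and below). Dnmt1, the maintenance DNA methyltransferase, was at 389.9 ± 89.4 against 175 ± 78.1 CPM. Uhrf1, which recruits it to new DNA, was at 91.3 ± 19.9 against 35.6 ± 20.8 CPM and Asf1b, a histone chaperone, at 30.8 ± 10.5 against 12 ± 3.92 CPM. These 3 rose with the score (limma adjusted p = 1.93e-05, 0.000265 and 3.89e-05) and did not pass between the sets (0.129, 0.138 and 0.122).

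Of 27 homologous recombination and Fanconi genes, 26 were higher by value (median 1.01), 0 passed between the sets (20 at an unadjusted p under 0.05) and 20 rose with the score. The share of all genes that rose was 7.29%. Fancd2, the protein monoubiquitinated at crosslinks, was at 44.2, 29.8, 34.5, 24.1 and 36.5 CPM in the high-score tumours and at 23, 10.6, 9.66, 7.09 and 10.3 in the low-score tumours, log2 1.48 (SE 0.30). Rad54l, a DNA translocase of homologous recombination, was at 53.6, 31.9, 28.1, 33.5 and 26 CPM in the high-score tumours and at 20.3, 11.7, 3.37, 5.60 and 6.03 in the low-score tumours, log2 1.96 (SE 0.41). The sets did not overlap for either, the limma adjusted p was 0.0766 and 0.0881 between the sets and 2.55e-05 and 2.47e-05 with the score. Fanci, partner of Fancd2, and Bard1, partner of Brca1, were at 25.5 ± 10.8 against 7.98 ± 4.02 CPM and 18.2 ± 3.87 against 7.31 ± 3.36 CPM, and both rose with the score (limma adjusted p = 2.16e-05 and 0.000134). Xrcc3, a recombination repair gene, was at 16.2 ± 4.81 against 17.4 ± 5.67 CPM and passed neither test.

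Genes of the restriction point went with the score in part. Cdkn2c, the p18 inhibitor of Cdk4 and Cdk6 (mm10 chromosome 4, 109660876 to 109667189), was at 153, 94.8, 89.9, 124 and 133 CPM in the high-score tumours and at 51.1, 47.9, 44.5, 32.7 and 20.2 in the low-score tumours. The log2 difference was 1.62 (SE 0.27) (limma adjusted p = 0.04997), so this inhibitor was higher where the proliferation genes were higher. It was the 1 of 12 CDK inhibitor and D-type cyclin genes past limma between the sets, while 10 of 12 were higher by value (median 0.79) and 6 rose with the score. Over all genes tested 7.29% rose. Ccnd1, cyclin D1, was at 2494, 2082, 2443, 1308 and 2060.1 CPM in the high-score tumours and at 1801, 1368, 595, 608 and 244 in the low-score tumours, and Cdk4, its kinase, at 492 ± 100.4 against 297 ± 162 CPM. The sets overlapped for both, and both rose with the score (limma adjusted p = 0.00164 and 0.00668), which was lost without p53_WT replicate 3 and ATRXfl_WT replicate 1 together (0.133 and 0.135) and, for Cdk4, without p53_WT replicate 3 alone (0.0538). Cdkn2a, which encodes p16 and Arf, was at 281, 205, 538, 280.2 and 251 CPM in the high-score tumours and at 216, 359.9, 194, 86.5 and 2.69 in the low-score tumours. The limma adjusted p of its slope was 0.0471, and it passed in 3 of the 15 fits that left out 1 tumour and not without p53_WT replicate 3 and ATRXfl_WT replicate 1 (0.752). Cdkn1a, p21, was at 38, 58.4, 89.4, 228 and 73 CPM in the high-score tumours and at 47.9, 247, 235, 189 and 76.3 in the low-score tumours and passed neither test (limma adjusted p = 0.689 between sets).

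The 6 genes outside every cell-cycle list with the smallest p and sets that did not overlap, on the higher side, were Arhgef39, Mns1, Knstrn, Cdca5, Pimreg and Psrc1, all at a limma adjusted p of 0.04997. Knstrn, Cdca5, Pimreg and Psrc1 are known genes of mitosis that the lists did not hold. Knstrn, a kinetochore adaptor for the dynein machinery, was at 177, 87.1, 105, 93.1 and 98.6 CPM in the high-score tumours and at 45.3, 40.3, 24.4, 17.2 and 18 in the low-score tumours, log2 1.97 (SE 0.31). Cdca5, sororin, which protects sister cohesion, was at 27.8 ± 6.35 against 8.62 ± 2.66 CPM. Pimreg, a mitotic regulator, was at 53.8 ± 11.2 against 17.1 ± 6.07 CPM and Psrc1, a microtubule-binding spindle protein, at 27.2 ± 1.79 against 9.89 ± 3.05 CPM. Arhgef39, a guanine nucleotide exchange factor, was at 38.6, 23.9, 23.9, 34.8 and 34.9 CPM in the high-score tumours and at 6.77, 8.81, 11.4, 6.03 and 6.25 in the low-score tumours, log2 1.87 (SE 0.25). Mns1, a protein of cilia and sperm flagella, was at 45.1, 26.6, 38.1, 33.9 and 33.6 CPM in the high-score tumours and at 14.7, 5.09, 10.3, 7.24 and 6.64 in the low-score tumours, log2 1.96 (SE 0.28). For both, every high-score tumour was above every low-score one.

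On the lower side 0 genes passed limma between the sets (407 at an unadjusted p under 0.05), with 0 by edgeR and 129 by DESeq2. The 6 with the smallest p and sets that did not overlap were Serpind1, Itpr3, Kif26b, Tcta, Inha and Il18rap. Serpind1, heparin cofactor II, was at 1.32, 2.08, 1.81, 3.81 and 2.50 CPM in the high-score tumours and at 5.33, 10.9, 7.83, 10.5 and 11.4 in the low-score tumours. The log2 difference was -1.63 (SE 0.30) (limma adjusted p = 0.0651), and the middle tumour p53_WT replicate 1 was at 17 CPM, above all tumours of both sets. Itpr3, a calcium channel of the endoplasmic reticulum, was at 4.36, 6.09, 7.68, 6.40 and 5.67 CPM in the high-score tumours and at 12.1, 9.49, 24.6, 24.4 and 20.2 in the low-score tumours, log2 -1.37 (SE 0.31). Il18rap, a subunit of the interleukin 18 receptor, was at 0.600, 0.636, 1.58, 1.58 and 1.33 CPM in the high-score tumours and at 2.35, 4.37, 5.08, 6.99 and 2.47 in the low-score tumours, log2 -1.24 (SE 0.32). Kif26b, Tcta and Inha had log2 differences of -1.13 (SE 0.26), -0.87 (SE 0.20) and -1.10 (SE 0.28). Between the sets the limma adjusted p of the last 5 ran from 0.122 to 0.188. With the score, Serpind1, Itpr3, Tcta, Inha and Il18rap fell (limma adjusted p = 0.0214, 0.0017, 0.00873, 0.0127 and 0.00698) and Kif26b did not pass (0.0677). Without p53_WT replicate 3 and ATRXfl_WT replicate 1, the slopes of Serpind1, Itpr3 and Inha were -0.82, -0.66 and -0.46 (-0.74, -0.70 and -0.51 with all tumours) and no longer passed (limma adjusted p = 0.179, 0.0896 and 0.171), while the adjusted p was 0.0177 for Tcta and 0.0286 for Il18rap. Serpind1 and Inha were also lost without p53_WT replicate 3 alone (0.0724 and 0.105).

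**Figure D4:**
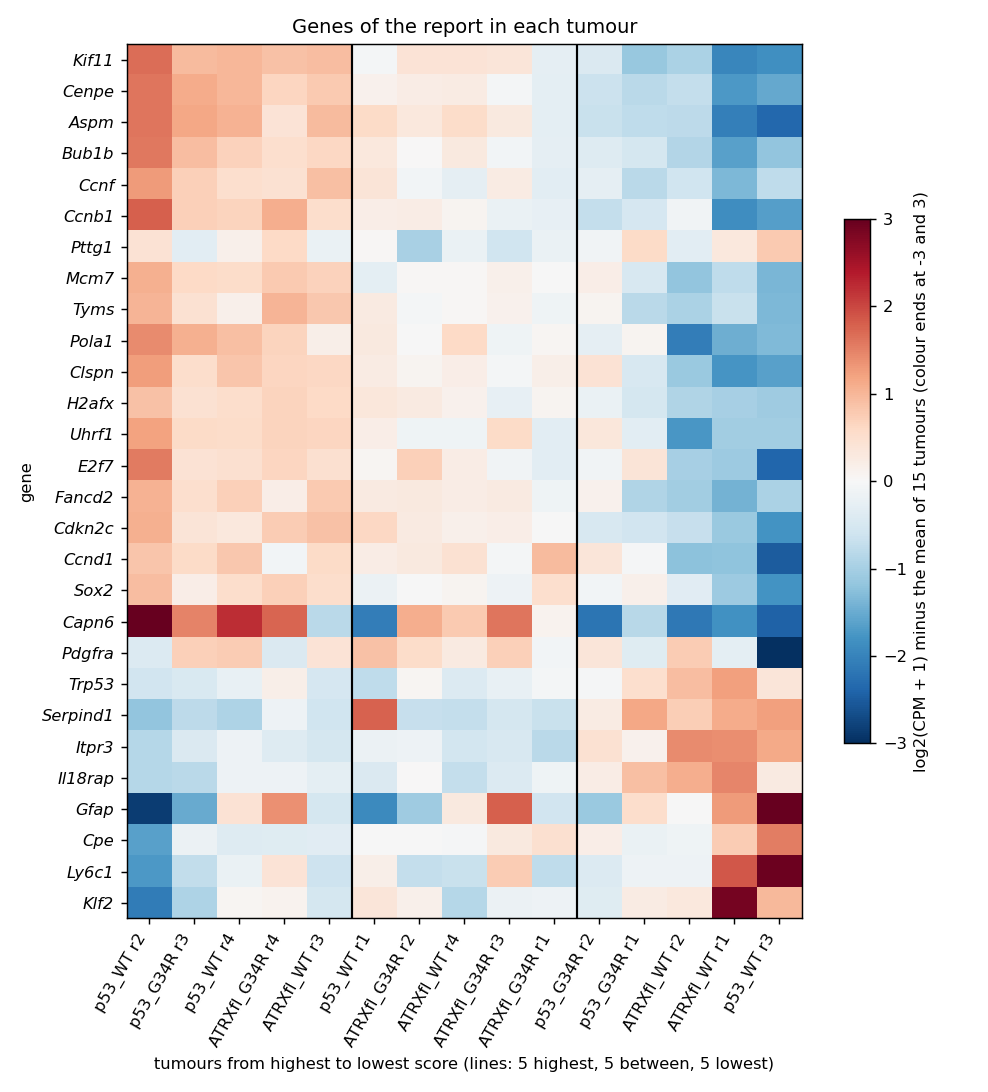
Level of 28 genes of the report in each tumour as log2(CPM + 1) minus the gene's mean over the 15 tumours (colour, red high and blue low), tumours from the highest to the lowest score. Kif11 runs from 257 CPM in p53_WT replicate 2 to 21.5 CPM in p53_WT replicate 3, and Capn6 from 158 CPM to 2.13 CPM in the same 2 tumours.

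Of 6 genes that the design engineers or that receive its signal, Trp53 was the 1 that went with the score. Trp53, floxed in every tumour (mm10 chromosome 11, 69580359 to 69591873), was at 21.4, 23.2, 27.2, 36.5 and 22.5 CPM in the high-score tumours and at 31.6, 45.8, 61.7, 77.2 and 41.9 in the low-score tumours. The sets overlapped (36.5 and 31.6 CPM), the log2 difference of -0.92 (SE 0.26) did not pass (limma adjusted p = 0.244), and the slope of -0.48 (SE 0.10; adjusted p = 0.00677) did, by limma. The slope passed in 15 of 15 fits that left out 1 tumour, and not without p53_WT replicate 3 and ATRXfl_WT replicate 1 together (-0.51; adjusted p = 0.0772). Reads are counted over the whole gene, so a level does not measure what Cre removed. Of 19 p53 target genes, 5 were higher by value (median -0.19), 0 passed between the sets (1 lower at an unadjusted p under 0.05) and 1 fell with the score, where 3.19% of all genes tested fell. This count of 1 is no result about the list. The gene was Pmaip1, the Noxa gene (10.4 ± 3.51 against 30.2 ± 27.2 CPM; limma slope adjusted p = 0.0238), with a slope of -0.67. Without the same pair of tumours the slope was -0.72 (limma adjusted p = 0.0813).

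Atrx was at 244, 299.7, 295, 48.9 and 73.9 CPM in the high-score tumours and at 216, 191, 87.3, 85.3 and 169 in the low-score tumours, log2 0.12 (SE 0.54), with overlap. Pdgfa was at 899, 712, 2238, 756 and 1090.3 CPM in the high-score tumours and at 1009.6, 589, 940.5, 443 and 40.6 in the low-score tumours. Its receptor Pdgfra was at 1962, 4298, 4450.2, 1958 and 3494 CPM in the high-score tumours and at 3385, 2025, 4469.7, 2149.9 and 179 in the low-score tumours. The sources used here do not say whether reads of the delivered PDGFA are counted in these values. p53_WT replicate 3 held 40.6 CPM of Pdgfa and 179 of Pdgfra, the lowest of all tumours for both. H3f3a and H3f3b, the genes of histone H3.3, were at 9.26 ± 2.78 against 7.70 ± 1.68 CPM and 371 ± 80.3 against 349.9 ± 146 CPM. None of these 5 passed limma between the sets (adjusted p = 0.951, 0.589, 0.715, 0.805 and 0.856) or with the score (0.562, 0.0771, 0.155, 0.219 and 0.369).

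Genes of growth were higher by value in the high-score tumours. Of 26 Myc family and ribosome biogenesis genes 21 were positive (median 0.67), 0 passed between the sets (13 at an unadjusted p under 0.05) and 12 rose with the score. Over all genes tested 7.29% rose. Cad, which starts pyrimidine synthesis, was at 170.1, 188, 208, 112 and 168 CPM in the high-score tumours and at 114, 70.3, 60.2, 71.6 and 50.6 in the low-score tumours, log2 1.22 (SE 0.25) (limma adjusted p = 0.0766), and its slope was 0.57 (SE 0.08; adjusted p = 0.000365) by limma. The sets overlapped at 112 and 114 CPM. Mxd3, a partner of Max, was at 24.6 ± 6.22 against 10.1 ± 4.91 CPM. Nolc1 and Nop56, nucleolar proteins of ribosome assembly, were at 188 ± 49.3 against 103 ± 21.7 CPM and 93 ± 20.0 against 56.7 ± 11.5 CPM. All 3 rose with the score (limma adjusted p = 0.000877, 0.0439 and 0.0415). Without p53_WT replicate 3 and ATRXfl_WT replicate 1 the slopes of Mxd3, Nolc1 and Nop56 were 0.53, 0.47 and 0.42 (0.70, 0.41 and 0.31 with all tumours) and no longer passed (0.0651, 0.215 and 0.122 by limma) and Cad was at 0.0112. Nolc1 and Nop56 passed in 4 and 6 of 15 fits that left out 1 tumour.

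Most progenitor genes were higher by value as well. Of 20 neural stem and radial glia genes, 15 were positive (median 0.42), 0 passed between the sets (4 at an unadjusted p under 0.05) and 4 rose with the score. Over all genes tested 7.29% rose. Sox2, a factor of neural stem cells and glioma cells (mm10 chromosome 3, 34650405 to 34652461), was at 323, 195, 246, 280.0 and 243 CPM in the high-score tumours and at 159, 187, 134, 79 and 48.5 in the low-score tumours. Its sets did not overlap, with p53_G34R replicate 1 the highest low-score tumour at 187 CPM. The log2 difference was 1.21 (SE 0.34) (limma adjusted p = 0.244) and the slope was 0.66 (SE 0.10; adjusted p = 0.000466) by limma. The slope passed in 15 of 15 fits that left out 1 tumour, and not without p53_WT replicate 3 and ATRXfl_WT replicate 1 together (0.43; adjusted p = 0.0866). Fabp7, the radial glia fatty acid binding protein, was at 491 ± 119 against 292 ± 202 CPM, and Sox11, an early neural factor, at 151 ± 21.9 against 82.8 ± 40.9 CPM. Both rose with the score (limma adjusted p = 0.00917 and 0.0391), and neither passed without p53_WT replicate 3 (0.0783 and 0.199). Fabp7 passed in 14 and Sox11 in 10 of 15 fits that left out 1 tumour. Vim went the other way, at 761 ± 262 against 1154 ± 587 CPM (log2 -0.51 (SE 0.38)), and passed neither test. This stem list summed to 3096 to 4120 CPM in the high-score and 2487 to 4595 in the low-score tumours. The 4595 CPM were in p53_G34R replicate 1. All 20 oligodendrocyte progenitor genes were positive (median 0.84) and 0 passed between the sets (2 at an unadjusted p under 0.05). Beside 7.29% of all genes, 4 of this list rose with the score. Among them was the receptor phosphatase Ptprz1 (1907 ± 821 against 961 ± 716 CPM). Its slope was 0.73 (SE 0.18; adjusted p = 0.0175) by limma, and it did not pass without p53_WT replicate 3 (0.123). The summed level of that list was 10839 to 22183 CPM in the high-score tumours and 2273 to 20128 in the low-score tumours, with 2273 in p53_WT replicate 3 and 10826 to 20128 in the other 4. The middle tumours held 14840.5 to 31621 CPM. Their median was 19906 CPM against 17464 in the high-score tumours, so the sum did not rise steadily with the score. Without p53_WT replicate 3 and ATRXfl_WT replicate 1 the median was 0.49.

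Genes of normal brain cells were mostly lower by value in the high-score tumours, and 0 members of these lists passed limma between the sets, with at most 2 of any list lower at an unadjusted p under 0.05. Of 28 mature neuron genes 2 were higher by value (median -0.85), and 0 went with the score. Meg3, a noncoding RNA of neurons, was at 26.3, 219, 252, 272 and 282 CPM in the high-score tumours and at 449, 375, 279, 532 and 2599 in the low-score tumours. The summed neuron list was at 661 to 1794 CPM in the high-score tumours and 908 to 2319 in the low-score tumours other than p53_WT replicate 3 (19461), and without p53_WT replicate 3 and ATRXfl_WT replicate 1 the median turned to 0.43. Of 20 astrocyte genes 3 were higher by value (median -0.45). Over all genes tested 3.19% fell with the score, and in this list 2 did. These were Gfap, the astrocyte filament gene (305 ± 295 against 1225 ± 1869 CPM), and Cpe, a peptide-processing enzyme (495 ± 155 against 1052 ± 591 CPM), with limma adjusted p of 0.0364 and 0.00283. Their list summed to 4206 to 8450 CPM in the high-score tumours, to 16499 in p53_WT replicate 3 and to 15879 in ATRXfl_WT replicate 1, and its median turned to 0.10 without these 2. Without them the slopes of Gfap and Cpe were -0.78 and -0.52 (-1.20 and -0.61 with all tumours) and no longer passed (0.452 and 0.117 by limma). Gfap passed in 12 of 15 fits that left out 1 tumour. Of 19 myelin genes 5 were higher by value (median -0.28), and the median turned to 0.34 without the same 2 tumours. Of 21 early neuron genes 6 were higher by value (median -0.33) and 0 went with the score, and the median turned to 0.19 without that pair.

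Vessel genes were likewise lower by value, with 2 of 20 endothelial genes higher (median -0.57) and 5 falling with the score, where 3.19% of all genes tested fell. Plvap, a protein of leaky vessels, was at 13, 15.5, 9.22, 22 and 15.9 CPM in the high-score tumours and at 26.1, 25.9, 33.1, 55.5 and 24.9 in the low-score tumours, with sets that did not overlap (limma adjusted p = 0.223). Ly6c1, an endothelial surface protein, was at 5.05 ± 3.10 against 21.4 ± 24.3 CPM and fell with the score (limma adjusted p = 0.00692), though not without p53_WT replicate 3 (0.0684). The endothelial list summed to 829.3 to 1560 CPM in the high-score tumours, 5750 in ATRXfl_WT replicate 1 and 1001 to 1752 in the other low-score tumours, and the median turned to 0.18 without p53_WT replicate 3 and ATRXfl_WT replicate 1. Pericyte, smooth muscle and fibroblast genes (4 of 24 higher by value, median -0.36) and erythroid genes (3 of 6, median 0.13) had 0 members that went with the score. Without p53_WT replicate 3 and ATRXfl_WT replicate 1 these medians were 0.06 and 0.55. Of 24 microglia and macrophage genes, 4 were higher by value (median -0.51, and 0.06 without that pair), and 0 went with the score. They summed to 918 to 4226 CPM in the high-score tumours and 1057 to 5254 in the low-score tumours. T and NK cell genes summed to 8.29 to 51.1 CPM over the high-score and 11.6 to 42.5 over the low-score tumours, and 8 of 24 were under 1 CPM in every tumour.

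In 1 low-score tumour these sums lay within the range of the high-score set. ATRXfl_WT replicate 2 had 1038 CPM of mature neuron genes (661 to 1794 in the high-score tumours), 7755 of astrocyte genes (4206 to 8450) and 1099 of myelin genes (793 to 2335). It had 1579 of microglia genes (918 to 4226), 1001 of endothelial genes (829.3 to 1560) and 1101 of pericyte, smooth muscle and fibroblast genes (942 to 3037). In p53_G34R replicate 2 mature neuron genes were above the high-score range (2319 CPM), and in p53_G34R replicate 1 hypoxia genes (10153 CPM against 2383 to 5429) and pericyte, smooth muscle and fibroblast genes (3601 CPM). The part of these other cells in the differences between the sets was not tested further.

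**Figure D5:**
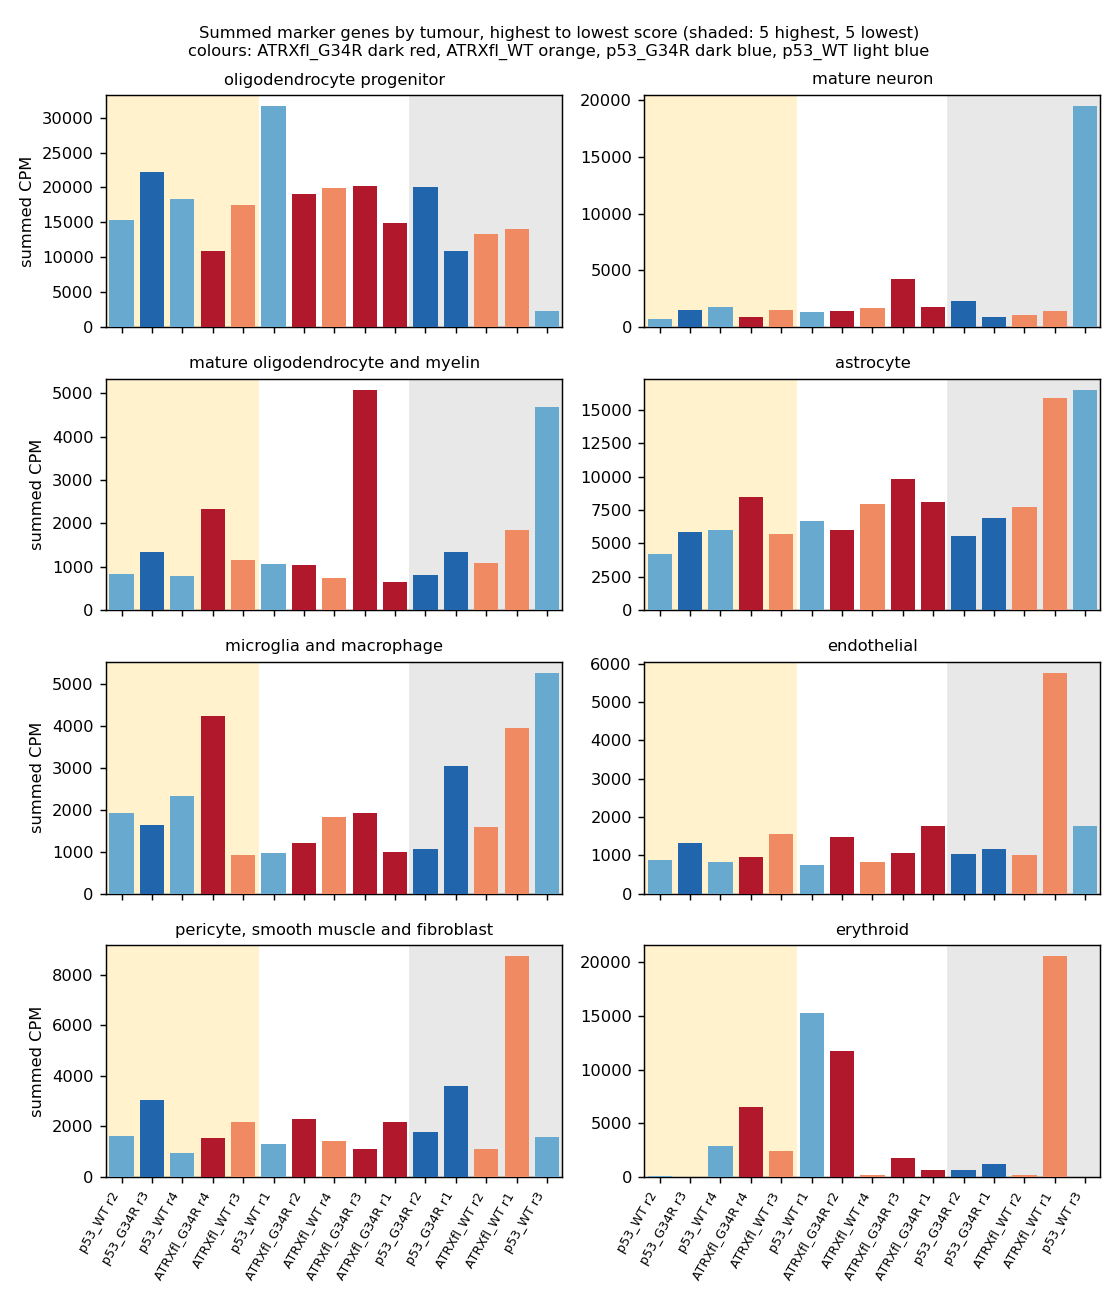
Summed CPM of the marker genes of 8 cell types in each tumour (bars, coloured by study group), from the highest to the lowest score, with both sets of 5 shaded. p53_WT replicate 3 reaches 19461 CPM of mature neuron genes and ATRXfl_WT replicate 1 reaches 5750 of endothelial and 20537 of erythroid genes.

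Signalling and stress lists did not separate the sets. Hypoxia and glycolysis genes (11 of 24 higher by value, median -0.03), MHC genes (10 of 19, 0.07), interferon-stimulated genes (5 of 30, -0.36), immediate early genes (11 of 24, -0.03) and ciliated and choroid plexus genes (1 of 5, -0.12) had 0 members past limma between the sets and at most 2 at an unadjusted p under 0.05. With the score 3.19% of all genes tested fell, and of 24 hypoxia genes 2 did. These were Slc2a1, the glucose transporter that the endothelial list also holds, and Pfkfb4, a glycolytic regulator (limma adjusted p = 0.0351 and 0.0141). The immediate early gene Klf2, a factor also known in endothelium, fell too (0.00326 by limma). It was the 1 of 24 immediate early genes to fall, near the share of all genes, so this count is no result about the list. Without p53_WT replicate 3 and ATRXfl_WT replicate 1, the slopes of Slc2a1, Pfkfb4 and Klf2 were -0.65, -0.34 and -0.71 (-0.58, -0.39 and -0.93 with all tumours), with limma adjusted p of 0.211, 0.253 and 0.108. Slc2a1 passed in 10 of 15 fits that left out 1 tumour. The list medians without this pair were -0.48 for hypoxia, -0.03 for MHC, -0.19 for interferon and -0.19 for immediate early genes. Vegfa, the vessel growth factor, was at 688, 541, 333, 913 and 668 CPM in the high-score tumours and at 504, 1536, 392, 67.5 and 71.8 in the low-score tumours. It passed neither test. Of 19 genes of epithelial-to-mesenchymal change and matrix remodelling, 1 was higher by value (median -0.65), with 0 past either limma test and 2 lower at an unadjusted p under 0.05. S100a6, a calcium-binding protein, was at 26.2, 24.7, 25.7, 59.5 and 26.2 CPM in the high-score tumours and at 49.1, 195, 24.4, 77.8 and 114 in the low-score tumours (limma adjusted p = 0.441).

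Chosen after its values were seen, Capn6, a calpain without protease activity that binds microtubules (mm10 chromosome X, 143802231 to 143827414), had the widest log2 difference of the 15510 genes, 3.47 (SE 0.63). It was at 158, 46.3, 76.2, 55.5 and 8.61 CPM in the high-score tumours and at 2.65, 8.32, 2.79, 3.72 and 2.13 in the low-score tumours. The sets nearly touched at 8.61 and 8.32 CPM, the limma adjusted p was 0.0651 between them and the slope was 1.59 (SE 0.32; adjusted p = 0.00518) by limma, and 0.0368 was its adjusted p without p53_WT replicate 3 and ATRXfl_WT replicate 1. The middle tumours ran from 2.96 to 49.7 CPM, so tumours of like score differed in Capn6.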

How the data were processed

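RNA sequencing of 15 tumours was deposited in 5 tables of 54232 genes each. The deposited values are a signal: per the submitters' processing notes, STAR 2.7, HTSeq and DESeq2 were used with the mm10 genome. Settings and annotation versions were not given in the sources used here. From the values, each library holds reads divided by 1 size factor. All values (100%) were whole reads within 0.01 once multiplied back, so reads were recovered and expressed per 1000000 reads in genes (CPM). 3 columns whose smallest nonzero value was near 1 were not used, and the reads of their libraries came from other columns. Of the IDs, 54165 (99.88%) matched GENCODE vM21. Libraries held 22807315 to 35679129 reads.

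The sets are the 5 tumours with the highest and lowest mean log2(CPM + 1) of Mki67, Top2a and Mcm2. The members and lists were chosen with earlier results of these data known. limma 3.58.1 (trend, robust; R 4.3.3) was fitted on log2(CPM + 1) of genes with a mean of at least 1 CPM, and p-values were Benjamini-Hochberg adjusted over all genes tested. Fold changes of low genes are understated on this scale. Slopes on the score used all 15 tumours. edgeR 4.0.16 and DESeq2 1.42.0 on recovered reads, other pseudocounts (0.1 and 5), no filter, TMM, median of ratios, covariates, sets of 4 and 6, other scores and left-out tumours were alternatives, and, chosen after seeing the data, the title code as a block and sums of libraries with a shared title code. The limma fit between the sets was tested on simulated data, and the other fits, with the slopes, were not. The 28 lists held 644 symbols, 6 of them unmatched. Named genes are the score and engineered genes, up to 6 genes a direction outside cell-cycle lists with the smallest p and sets that did not overlap, and, within a list, up to 4 members with the smallest p and those with the largest and smallest difference. Promoters are from RefSeq (GRCm38.p6).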

Additional observations from a re-analysis of the deposited data

Results flagged for a closer look

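Of 179 groups of values checked, 17 held a tumour far from the others by Dixon's test. Chance gives about 1 in 20 for independent groups. These groups share the same tumours, and the sets were chosen by a score of cell-cycle genes, so the count is a description. Most groups were a gene in the 5 tumours of a set, and the rest were the score in study groups of 4 tumours. All 17 were of a gene within a set. p53_WT replicate 2, the tumour with the highest score, accounted for 10 of the 17. Within the high-score set it was highest for Mki67 (1024 CPM), Kif11 (257 CPM), Ect2 (142.7 CPM), Mis18a (31.43 CPM), Bub1 (74.54 CPM), E2f7 (56.81 CPM), Uhrf1 (126.5 CPM) and Knstrn (176.7 CPM), and lowest for Meg3 (26.3 CPM) and Cpe (225.3 CPM). The values checked included the score and its 3 genes. They ranked the tumours, so the flag for Mki67 is a description and no result. Within the low-score set p53_WT replicate 3 stood apart with the highest Meg3 (2599 CPM) and the lowest Pdgfa (40.61 CPM) and Pdgfra (179.4 CPM). Single tumours apart from their set were p53_G34R replicate 2 for Fanci (15.05 CPM, low-score), ATRXfl_WT replicate 3 for Tcta (25.39 CPM, high-score), ATRXfl_WT replicate 2 for Tcta (45.04 CPM, low-score) and ATRXfl_G34R replicate 4 for S100a6 (59.54 CPM, high-score).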

How the results depend on the processing

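Between the sets, limma called 24 genes higher and 0 lower. It called 0 of both with a pseudocount of 0.1 CPM, with no filter (35200 genes), with TMM or median of ratios scaling, with Atrx and histone as covariates, with sets of 4 or 6, with a score of Mcm2 and with p53_WT replicate 3 left out before ranking, and so did edgeR. It called 18 higher and 0 lower with a pseudocount of 5 CPM and 24 higher with a score of Mki67 and Top2a, which picks the same sets. DESeq2 called 228 higher and 129 lower, all 24 among the former, with a median of all genes at -0.11. The score as a continuous term gave 1122 rising and 491 falling genes, and 882 and 319 with covariates. Leaving out 1 tumour gave 0 to 124 higher and 0 to 3 lower. The following were chosen after seeing the data. Leaving out p53_WT replicate 3 and ATRXfl_WT replicate 1 gave 0 genes between the sets and 354 rising and 78 falling ones. The slopes gave 1131 and 465 with a pseudocount of 0.1 CPM, 1118 and 514 with 5 CPM, 623 and 221 with no filter, 859 and 644 with the median of ratios, 1018 and 546 with TMM, 926 and 1639 by edgeR, 61 and 3 in the floxed and 287 and 67 in the intact tumours. Leaving out 1 tumour gave 532 to 1435 rising and 151 to 716 falling. The cause of these shifts was not tested. Of 2295 slopes of named genes under alternatives, 278 lost their call, 17 gained one and 56 that were not called moved by more than their SE. The sign turned in 24 cases over 9 genes, none of them a slope called over all 15 tumours. No paired analysis was possible by replicate number, because the labels give none, but 3 title codes are shared by pairs of libraries, 2 of them across the sets. With the title code as a block, limma called 0 genes in either direction between the sets (349 higher and 217 lower at an unadjusted p under 0.05) and 0 rising and 0 falling (1431 and 1439), with 1 and 2 residual degrees of freedom. Summed libraries of a shared title code gave 471 rising and 157 falling genes; between the sets this was not run, since no set holds a pair. The number of tumours and 1 score limit the comparison.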
